A study of Ovis aries with 36 samples.

Results

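In cultured sheep (Ovis aries) ruminal epithelial cells held in the Grain-VFAs medium, RNA of the T4 harvest was compared with RNA of the T0 harvest, 4 h earlier, across all genes. The T4 and the T0 group were taken from the sample labels and hold 3 libraries each, 6 of the 36 libraries of the series. All cells, those of T0 included, had spent 2 h without serum in the presence of 100 nM dexamethasone (a glucocorticoid that brings the clocks of cultured cells into step) before they were moved to a medium with volatile fatty acids (VFAs) at pH 7.2. Grain-VFAs medium had a stated total of 115.78 mM, made of 71.1 mM acetate, 20.1 mM propionate, 16.0 mM butyrate, 5.3 mM isovalerate, 1.7 mM valerate and 1.1 mM isobutyrate. Harvest T4 was at 28 h and T0 at 24 h, and the labels do not state plainly from which event these hours run. The same interval in Hay-VFAs medium, again with 3 libraries at T4 and 3 at T0, served to see whether the change differed with the medium. Hay-VFAs medium had a stated total of 89.79 mM, with 60.8 mM acetate, 14.6 mM propionate and 9.2 mM butyrate. It also held 3.0 mM isovalerate, 1.2 mM valerate and 1.0 mM isobutyrate. The title of the series gives the aim as the effect of VFA concentration on the daily rhythm of gene expression, and the T4 and T0 pair covers the opening interval of that course. The labels name no separate animals or cultures for the 3 libraries of each time, so p-values reflect the spread of these samples alone, and that spread may be technical.

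Ruminal epithelium is a stratified squamous epithelium that takes up and oxidises the acetate, propionate and butyrate made by rumen microbes, and its basal layer carries the keratins KRT5 and KRT14. In synchronised cells the circadian clock runs as a loop in which BMAL1 and CLOCK switch on the period and cryptochrome genes, whose proteins then hold BMAL1 and CLOCK back. Immediate early genes such as EGR1, JUN and ATF3 encode unstable mRNAs that respond within minutes to serum, growth factors and stress. Butyrate is known as an inhibitor of histone deacetylases in cultured cells.

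Total counts were 5.64e+07 to 6.53e+07 in the T4 libraries and 5.24e+07 to 5.91e+07 in the T0 libraries. Levels are given as CPM, counts scaled to library size, and differences as the log2 fold change of T4 over T0, tested with edgeR's quasi-likelihood test on all 36 libraries with Benjamini-Hochberg adjustment over 22488 genes. Within a group, libraries correlated across genes at 0.996 or higher, and no replicate pair was close enough to be a single library deposited again (chi-square over its degrees of freedom between 6.70 and 18.6). One T4 library, replicate 2, had 1.87% of its counts in ribosomal RNA, against 0.924% to 1.08% in the other 5. Transcripts of FN1, fibronectin, named here for its abundance and after its values were seen, took 6.50% to 6.69% of all counts at T4, against 7.17% to 7.37% at T0. Genes with at least 10 counts numbered 19841 to 20043 in the T4 libraries and 19467 to 19634 in the T0 libraries.

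The labelled cell type was checked against marker lists. Basal keratinocyte markers summed to 2272 to 2332 CPM at T4 and 2733 to 2914 CPM at T0. Fibroblast markers summed to far more, 21545 to 22397 CPM at T4 and 23660.3 to 25684 CPM at T0. Simple epithelial markers came to 186 to 200.4 CPM at T4 and 198 to 229 CPM at T0, and those of differentiated keratinocytes to 82.5 to 85.6 CPM at T4 and 98.5 to 102 CPM at T0. Leukocyte markers were close to absent, with 6.25 to 7.25 CPM at T4 and 7.19 to 7.26 CPM at T0 over 10 genes, and CD3E, a T cell receptor chain, stood at 0.0204 CPM at T4 and 0.128 CPM at T0. The keratinocyte genes KRT1, KRT10, KRT4 and SPRR3 were not analysed here. Epithelial transcripts were thus present beside a larger sum of mesenchymal ones, and the cultures are called here by their label.

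Over the 4 h, genes of the matrix, the actin cytoskeleton, basal keratinocytes, the immediate early response and the mitochondrial genome were lower at T4. Core clock genes moved in both directions, none of them by 2-fold. Of 22488 genes tested, 4668 passed adjusted p of 0.05 (20.8%), 2315 of them higher at T4 (10.3%) and 2353 lower (10.5%). An unadjusted p under 0.05 was met by 7041 genes. Most changes were small. The median size of the called changes was 0.25 on the log2 scale, and the median change of all genes tested was 0.01. Of the calls, 243 reached 2-fold (156 higher and 87 lower). Among genes that the naming rule of the methods admits, MTERF2 alone rose by 2-fold, and it is uncertain for an overlap. Several genes that this rule admits fell by 2-fold, EGR3 and KRT5 among them. The excess of 2-fold rises over falls thus does not extend to these genes. Counts of called list members below are to be read against the shares of 10.3% higher and 10.5% lower. These shares grew with level. Among the 4498 genes of highest mean CPM, from 47.3 CPM up, 18.1% were higher and 25.7% lower. Lists of abundant genes can therefore exceed the shares of all genes without standing out from genes of like level. The lists were not matched for level. The lists were chosen with earlier results of these data known, so their counts describe them and test nothing. List members named only beside a count, with no value, were picked after their values were seen.

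**Figure D1:**
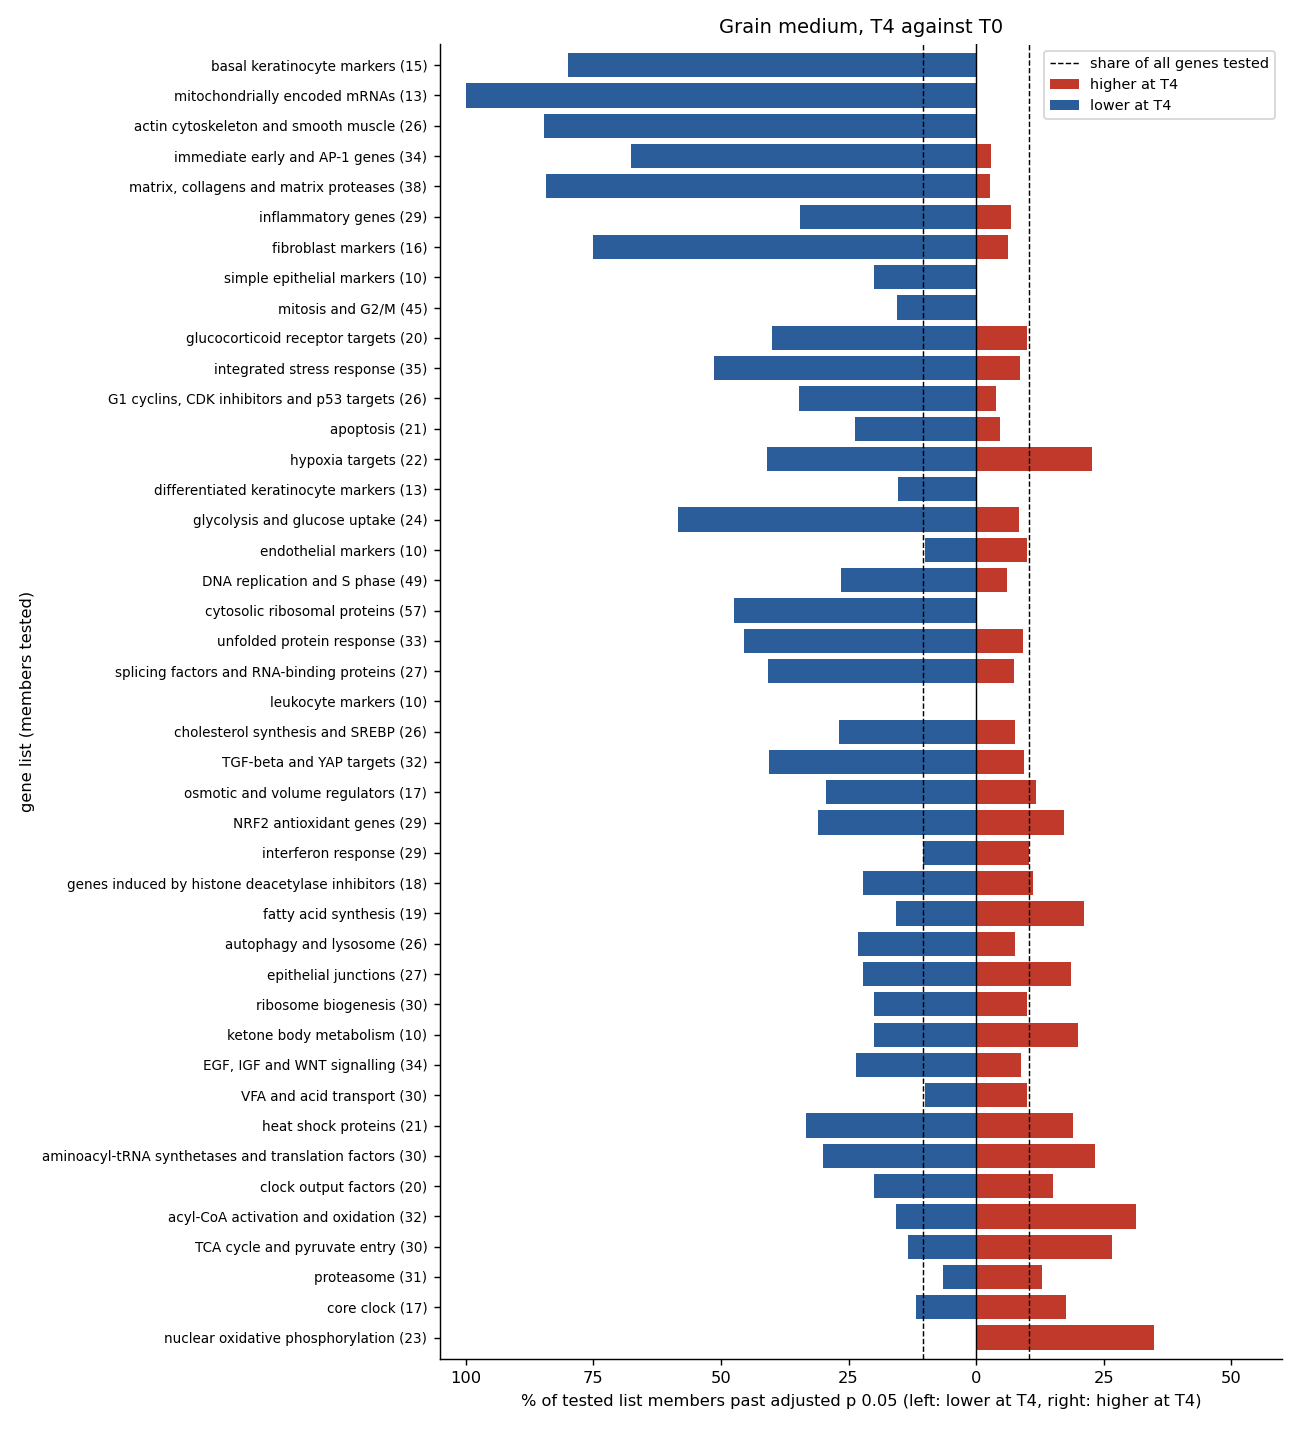
Share of the tested members of each gene list that passed adjusted p of 0.05 in Grain medium, lower at T4 (bars to the left, in %) or higher at T4 (bars to the right, in %), with the number of members tested in brackets and lists ordered by their median log2 fold change. Dashed lines mark the shares over all genes tested, 10.5% lower and 10.3% higher; all 13 mitochondrially encoded mRNAs were lower, and 32 of 38 matrix genes.

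Immediate early genes fell widely. Of 34 genes of this list tested, 23 fell and 1 rose (SPRED2, an inhibitor of the MAP kinase cascade, named after its values were seen), with a list median of -0.32. EGR1, a zinc finger transcription factor induced by growth factors, had 30.0, 31.6 and 33.0 CPM at T4, against 56.0, 60.1 and 61.8 CPM at T0. It fell by 0.91 log2 units (SE 0.064, adjusted p = 6.72e-13), and its T4 libraries lay wholly below its T0 libraries. NR4A1, an orphan nuclear receptor of the same early response, stood at 68.6, 62.7 and 80.3 CPM at T4, against 139.6, 131 and 129 CPM at T0 and fell by 0.92 log2 units (SE 0.068, adjusted p = 1.77e-12). DUSP5, a phosphatase that switches off ERK in the nucleus, had 16.7, 17.4 and 16.9 CPM at T4, against 34.5, 34.3 and 27.9 CPM at T0, and it fell by 0.93 log2 units (SE 0.067, adjusted p = 1.05e-12). EGR3 made the largest fall of all genes that the naming rule admits. It was read at 1.13, 1.13 and 1.68 CPM at T4, against 6.17, 5.52 and 6.15 CPM at T0, and fell by 2.17 log2 units (SE 0.19, adjusted p = 4.90e-11). Its relative EGR2 had 5.35, 4.46 and 5.08 CPM at T4, against 11.1, 10.4 and 12.1 CPM at T0 and fell by 1.17 log2 units (SE 0.13, adjusted p = 2.20e-08). ATF3, a stress-induced repressor of the same family of leucine zipper proteins as JUN, fell by 0.48 log2 units (SE 0.036, adjusted p = 3.30e-12); it overlaps LOC105607667 and is uncertain. For JUN, a subunit of the AP-1 factor, the 3 T4 libraries at 114, 113 and 122 CPM lay below the T0 libraries at 145, 147 and 158 CPM, and it fell by 0.36 log2 units (SE 0.045, adjusted p = 1.65e-07).

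Several genes of growth factor and TGF-beta signalling fell beside them. Among 32 TGF-beta and YAP targets 13 fell and 3 rose (ANKRD1, ID1 and TGFB2, named after their values were seen), and the median was -0.07. INHBA, which encodes the activin A subunit, had 394, 390.3 and 426 CPM at T4, against 669.5, 632 and 595 CPM at T0, and fell by 0.65 log2 units (SE 0.045, adjusted p = 5.75e-13). TGFBI, a secreted adhesion protein, fell by 0.52 (SE 0.042) on the log2 scale, and CCN1, a matricellular target of YAP, fell by 0.38 (SE 0.034). VEGFA, the vascular growth factor counted among the hypoxia targets, had 174, 189 and 198 CPM at T4, against 299, 294 and 262 CPM at T0, and fell by 0.61 log2 units (SE 0.044, adjusted p = 9.46e-13). Of the 22 hypoxia targets 9 fell and 5 rose. Among 34 genes of EGF, IGF and WNT signalling 8 fell and 3 rose, and IGFBP3, a carrier of insulin-like growth factors, fell by 0.51 (SE 0.046) on the log2 scale. Without T4 replicate 1, or without T0 replicate 2, the number of TGF-beta and YAP targets that rose was 1. Without either replicate 3, 3 of the hypoxia targets rose.

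Keratins and anchoring proteins of the basal layer were lower at T4. Of 15 basal keratinocyte markers 12 fell and none rose, with a median of -0.40. KRT5, the basal keratin, had 36.5, 37.0 and 45.4 CPM at T4, against 98.7, 89.3 and 79.9 CPM at T0, a fall of 2.25-fold. It fell by 1.17 log2 units (SE 0.069, adjusted p = 3.60e-14), and the highest T4 library was far below the lowest T0 library. Its partner KRT14 stood at 148, 154 and 171 CPM at T4, against 269.9, 245 and 240.2 CPM at T0 and fell by 0.67 log2 units (SE 0.054, adjusted p = 1.37e-11). KRT17, a keratin of activated and appendage epithelium, had 90.0, 92.3 and 99.6 CPM at T4, against 144, 133 and 131 CPM at T0 and fell by 0.53 log2 units (SE 0.046, adjusted p = 6.06e-11). Of 13 markers of differentiated keratinocytes 2 fell (KRT6A and KRT13), and KRT6A, a keratin of wound edges, had 13.4, 12.3 and 15.1 CPM at T4, against 29.1, 28.7 and 24.9 CPM at T0 and fell by 1.02 log2 units (SE 0.078, adjusted p = 3.95e-12). Simple epithelial markers gave 2 falls among 10 (KRT19 and ESRP1), and KRT19 fell by 0.41 (SE 0.064) on the log2 scale. Adhesion genes were split, with 6 of 27 junction genes lower and 5 higher. In bulk RNA, fewer cells of a type and less RNA per cell cannot be told apart. Leaving out T0 replicate 1 left 1 differentiated marker lower, and leaving out T4 replicate 1, T0 replicate 2 or T4 replicate 3 left 1 simple epithelial marker lower.

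**Figure D2:**
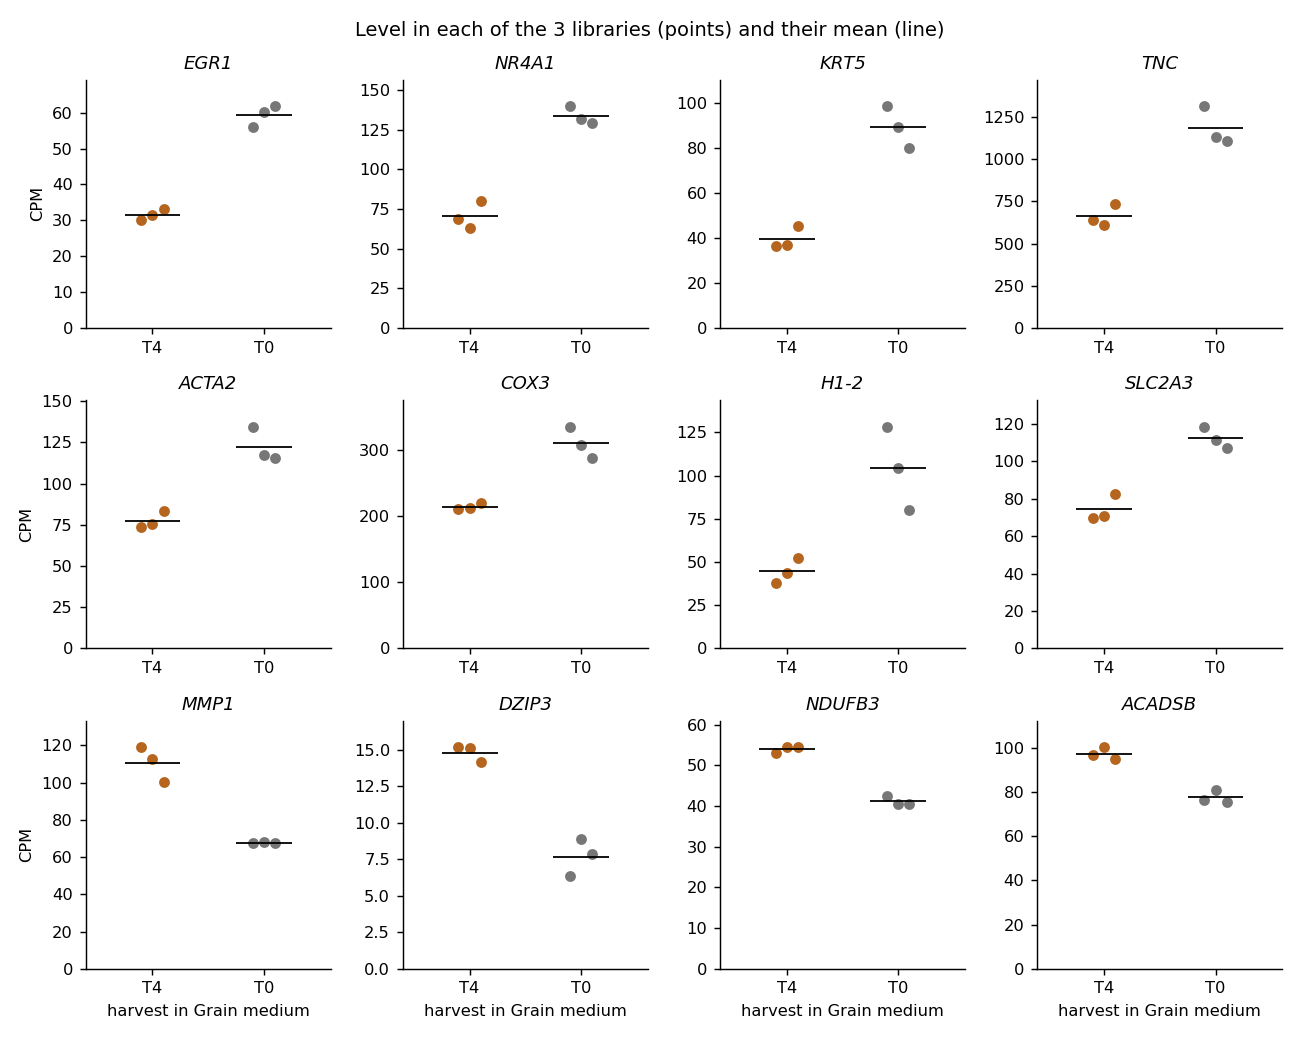
CPM of 12 genes in the 3 T4 libraries and the 3 T0 libraries of Grain medium (points, replicates 1 to 3 from left to right, with the group mean as a line and axes from 0). The 8 genes of the upper panel rows lie lower at T4 in every library, as KRT5 with 36.5 to 45.4 CPM against 79.9 to 98.7 CPM at T0, and the 4 of the bottom row lie higher, as MMP1 with 100.3 to 119 CPM against 67.4 to 67.9 CPM.

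Extracellular matrix genes were lower at T4 in most cases. Of 38 tested, 32 fell and 1 rose, with a median of -0.30. TNC, the wound matrix protein tenascin C, had 637, 612 and 734 CPM at T4, against 1314, 1130.2 and 1109 CPM at T0, and fell by 0.84 log2 units (SE 0.057, adjusted p = 2.87e-13); it overlaps LOC121818580 and is uncertain. THBS1, thrombospondin, stood at 2441, 2347 and 2402 CPM at T4, against 3804, 3453 and 3279 CPM at T0 and fell by 0.55 log2 units (SE 0.035, adjusted p = 1.43e-13), and is uncertain because it overlaps FSIP1. COL3A1, the chain of type III collagen, had 2937, 2799 and 2859 CPM at T4, against 4076, 3836 and 3987 CPM at T0, and fell by 0.47 log2 units (SE 0.034, adjusted p = 9.44e-13). LOXL2, an enzyme that crosslinks collagen, fell by 0.53 (SE 0.036) on the log2 scale, with an overlap that leaves it uncertain. FN1 fell by 0.21 log2 units (SE 0.030, adjusted p = 1.59e-06), with 65365 ± 690.2 CPM at T4 and 75806 ± 1619 CPM at T0 (SD, n = 3 each). The single rise was MMP1, the interstitial collagenase, which cuts fibrillar collagen. It had 119, 113 and 100.3 CPM at T4, against 67.4, 67.9 and 67.5 CPM at T0, and rose by 0.71 log2 units (SE 0.060, adjusted p = 4.68e-11). Collagen symbols as a family, read from the symbols after values were seen, gave 21 falls and 1 rise among 42 genes (the rise was COL24A1).

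Fibroblast and contractile markers shared the direction of the matrix. The fibroblast markers include collagens, COL3A1 among them, so their falls are in part those of the matrix genes above. Among 16 fibroblast markers 12 fell and 1 rose (TWIST1, a mesenchymal transcription factor named after its values were seen), with a median of -0.27; TWIST1 was no longer called without T0 replicate 2, T4 replicate 2 or T0 replicate 3. DPT, the dermal matrix protein dermatopontin, had 177, 174 and 186 CPM at T4, against 286, 259.6 and 248 CPM at T0, and fell by 0.56 log2 units (SE 0.039, adjusted p = 3.65e-13). Of the 26 actin cytoskeleton and smooth muscle genes 22 fell and none rose, with a median of -0.33. ACTA2, smooth muscle actin, stood at 73.5, 75.3 and 83.5 CPM at T4, against 135, 117 and 115 CPM at T0 and fell by 0.66 log2 units (SE 0.047, adjusted p = 6.72e-13). FLNA, the actin crosslinker filamin A, had 485, 472 and 495 CPM at T4, against 689, 674 and 689 CPM at T0 and fell by 0.50 log2 units (SE 0.036, adjusted p = 1.18e-12). VCL, vinculin of focal adhesions, fell by 0.35 (SE 0.026) on the log2 scale. Integrin symbols, a family chosen after values were seen, gave 12 falls and 2 rises (ITGA4 and ITGB3BP) among 30 genes. Actin and smooth muscle genes summed to 10905 to 11618 CPM at T4 and 12983 to 14406 CPM at T0. Matrix, basal keratinocyte, fibroblast and smooth muscle transcripts thus fell in the same libraries, though the matrix and fibroblast lists are not separate. The part of cell makeup in these falls was not tested.

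All 13 mitochondrially encoded mRNAs fell, with a median of -0.36, while 8 of 23 listed nuclear genes of oxidative phosphorylation rose and none of the 23 fell. COX3, a core subunit of complex IV, had 211, 212 and 220.3 CPM at T4, against 336, 308 and 288 CPM at T0, and fell by 0.53 log2 units (SE 0.046, adjusted p = 7.76e-11). ATP6, a subunit of the ATP synthase, stood at 305, 315 and 314 CPM at T4, against 476, 445 and 403 CPM at T0 and fell by 0.50 log2 units (SE 0.063, adjusted p = 1.88e-07); it overlaps ATP8 and is uncertain. Together the 13 mRNAs took 0.943% to 0.971% of counts at T4 and 1.03% to 1.11% at T0. The share of mitochondrial ribosomal RNA was 0.336% to 0.348% at T4 and 0.331% to 0.351% at T0, ranges that overlap. Among the nuclear genes, NDUFB3, an accessory subunit of complex I, had 53.03, 54.5 and 54.4 CPM at T4, against 42.5, 40.5 and 40.5 CPM at T0, and rose by 0.39 log2 units (SE 0.034, adjusted p = 7.58e-11). NDUFS1, which holds iron-sulphur clusters of complex I, rose by 0.24 (SE 0.029) on the log2 scale, and ATP5PO, the stalk subunit of the ATP synthase, rose by 0.25 (SE 0.033). Without T0 replicate 3, without T4 replicate 3, or with the DESeq2 Wald test, 1 of the 23 was called lower. Symbols beginning with NDUF, chosen after values were seen, gave 8 rises and 1 fall (NDUFA2) among 47.

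Genes that take up and burn fatty acids moved in both directions. Of 32 genes for the activation and oxidation of acyl-CoA, a list that holds genes of short and branched acids and also of longer ones such as ACADVL, CPT1A and CPT2, 10 rose and 5 fell. ACADSB, the dehydrogenase of short and branched acyl-CoA, had 96.9, 100.2 and 94.8 CPM at T4, against 76.2, 80.8 and 75.6 CPM at T0, and rose by 0.33 log2 units (SE 0.033, adjusted p = 1.96e-09). ACADVL, the dehydrogenase of very long acyl-CoA, stood at 27.5, 28.0 and 28.6 CPM at T4, against 34.7, 34.0 and 35.5 CPM at T0 and fell by 0.31 log2 units (SE 0.048, adjusted p = 1.04e-05). Without T0 replicate 1, 6 of the 32 rose, and without T4 replicate 1 or T4 replicate 2, 3 fell. The ketone body list gave 2 rises and 2 falls (ACAT1 and HMGCS1) among 10 genes, with a median of -0.03, and 1 of the rises rested on few counts. Its falls numbered 0 or 1 when any 1 of the 6 libraries was left out, and in 5 of the other settings tried. OXCT1, which starts the use of ketone bodies, had 158, 159 and 153 CPM at T4, against 136, 135 and 132 CPM at T0 and rose by 0.22 log2 units (SE 0.036, adjusted p = 1.93e-05). Transport of VFAs and acid held 3 rises (EMB, SLC9A2 and SLC4A8) and 3 falls (BSG and SLC16A1 among them) in 30 genes, shares close to those of all genes. EMB, embigin, a chaperone of monocarboxylate transporters, stood at 6.78, 7.05 and 6.91 CPM at T4, against 4.68, 4.60 and 3.90 CPM at T0 and rose by 0.65 log2 units (SE 0.096, adjusted p = 3.20e-06). SLC9A2, a sodium-proton exchanger, rose by 0.37 (SE 0.082) on the log2 scale. BSG, basigin, the other chaperone of these transporters, fell by 0.15 (SE 0.034). SLC16A1, the main monocarboxylate transporter of the rumen wall, added for its role after its values were seen, had 80.6, 78.5 and 81.0 CPM at T4, against 89.1, 90.5 and 81.6 CPM at T0 and fell by 0.12 log2 units (SE 0.038, adjusted p = 0.0178). Its call did not hold without replicate 1 or without replicate 2 of either time (adjusted p up to 0.119).

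Glycolysis and glucose uptake was lower at T4, with 14 falls and 2 rises (TXNIP and HK1) among 24 genes. SLC2A3, a high-affinity glucose transporter, had 69.8, 70.6 and 82.4 CPM at T4, against 118, 111 and 107 CPM at T0, and fell by 0.60 log2 units (SE 0.052, adjusted p = 8.82e-11). HK2, hexokinase, fell by 0.44 (SE 0.039) on the log2 scale, with overlapping genes that leave it uncertain, and GAPDH fell by 0.31 (SE 0.034). TXNIP, which holds back glucose uptake and binds thioredoxin, moved the other way, with 512, 534 and 509 CPM at T4, against 399, 412 and 379 CPM at T0. It rose by 0.39 log2 units (SE 0.031, adjusted p = 1.03e-11); it overlaps POLR3GL and is uncertain. In the TCA cycle 8 of 30 genes rose and 4 fell (CS, PDHB and SUCLA2 among them), and the falls numbered 1 without either replicate 1 and 2 without T4 replicate 2. Cholesterol synthesis gave 7 falls and 2 rises (HSD17B7 and INSIG2) among 26 genes. INSIG1, a sterol sensor of the ER, had 103, 105 and 110.2 CPM at T4, against 129, 118 and 119 CPM at T0 and fell by 0.20 log2 units (SE 0.041, adjusted p = 3.05e-04). Without T4 replicate 2, 4 cholesterol genes fell, and 1 rose without T0 replicate 1 or T4 replicate 2.

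Stress pathways of the endoplasmic reticulum (ER) fell more often than they rose. Of 33 genes of the unfolded protein response 15 fell and 3 rose (DERL2, DNAJC10 and EDEM2), and of 35 genes of the integrated stress response 18 fell and 3 rose (ALDH1L2, SLC7A11 and VLDLR). HSPA5, the main ER chaperone, had 7618, 7414 and 7955 CPM at T4, against 10119, 9429 and 8632 CPM at T0, and fell by 0.29 log2 units (SE 0.038, adjusted p = 2.76e-07). HERPUD1, which serves ER-associated degradation, fell by 0.29 (SE 0.037) on the log2 scale. Heat shock proteins held 7 falls and 4 rises among 21. HSP90AB1, the constant cytosolic HSP90, stood at 979, 987 and 1083 CPM at T4, against 1397, 1321 and 1256 CPM at T0 and fell by 0.38 log2 units (SE 0.037, adjusted p = 1.03e-09). DNAJB1, a cofactor of HSP70 chaperones, fell by 0.55 (SE 0.057) on the log2 scale, and HSPA1A, the inducible HSP70, fell by 0.40 (SE 0.042), uncertain for its overlap with HSPA1L. Among 29 NRF2 antioxidant genes 9 fell and 5 rose. MCL1, a short-lived inhibitor of apoptosis, had 246, 245 and 246 CPM at T4, against 357, 354 and 327 CPM at T0, and fell by 0.49 log2 units (SE 0.032, adjusted p = 1.43e-13). Without T0 replicate 1, the rises numbered 1 in each of the first 2 lists named here, and without T0 replicate 2 they numbered 1 in the unfolded protein response. With the 6 Grain libraries alone and the replicate number as a block, falls of the unfolded protein response numbered 8. Falls of the integrated stress response numbered 12 or more in every setting tried.

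Glucocorticoid receptor targets, of interest because all cells had been given dexamethasone, gave 8 falls and 2 rises (CEBPD and FAM107A) among 20 genes. Their median change was -0.16 in Grain. In Hay, after the same dexamethasone step, the list gave 2 rises and no fall, with a median of 0.10. The Grain median around the genes' own mean was 0.06 at T0, -0.14 at T4 and 0.26 at T12. The part of dexamethasone in these changes was not tested. TSC22D3, a leucine zipper protein induced by glucocorticoids, had 50.9, 54.2 and 60.6 CPM at T4, against 84.8, 79.8 and 75.2 CPM at T0, and fell by 0.53 log2 units (SE 0.051, adjusted p = 8.32e-10). ERRFI1, an inhibitor of EGF receptors, stood at 130.1, 135 and 137 CPM at T4, against 193, 183 and 176 CPM at T0 and fell by 0.45 log2 units (SE 0.035, adjusted p = 5.39e-12). SGK1, a kinase induced by steroids and by salt, fell by 0.31 (SE 0.034) on the log2 scale. Inflammatory genes gave 10 falls and 2 rises (ICAM1 and SOCS3) among 29. PTGS2, the inducible cyclooxygenase, had 386, 385 and 439 CPM at T4, against 625, 569 and 515 CPM at T0 and fell by 0.50 log2 units (SE 0.052, adjusted p = 6.02e-09), with an overlap that leaves it uncertain. IL1A, the alarm cytokine interleukin-1 alpha, stood at 41.9, 44.9 and 42.0 CPM at T4, against 60.7, 59.5 and 55.6 CPM at T0 and fell by 0.45 log2 units (SE 0.040, adjusted p = 1.54e-10). Of 29 interferon response genes 3 fell and 3 rose, near the shares of all genes. RSAD2, the antiviral protein viperin, had 9.07, 10.6 and 12.2 CPM at T4, against 24.9, 22.1 and 17.4 CPM at T0 and fell by 1.02 log2 units (SE 0.12, adjusted p = 8.50e-08); it overlaps LOC132659559 and is uncertain. The inflammatory rises numbered 0 without T0 replicate 1 or T4 replicate 2 and 1 without any other single library. In Grain the rises among glucocorticoid targets numbered 1 without T4 replicate 2 or T0 replicate 3.

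Cell cycle genes fell in part, and the number of falls depended on single libraries. Of 45 genes of mitosis and G2/M, 7 fell and none rose, with a median of -0.17. These falls were 15.6% of the list, not far above the 10.5% of all genes. AURKA, a kinase of the mitotic spindle, had 10.9, 10.4 and 12.6 CPM at T4, against 15.5, 15.5 and 16.5 CPM at T0, and fell by 0.49 log2 units (SE 0.10, adjusted p = 5.37e-04). CENPF, a kinetochore protein, fell by 0.32 (SE 0.063) on the log2 scale, TOP2A, the topoisomerase of dividing cells, fell by 0.21 (SE 0.044), and MKI67, the proliferation marker Ki-67, fell by 0.59 (SE 0.16). The MKI67 call did not hold without T4 replicate 1 (adjusted p = 0.0552). The list for DNA replication and S phase held 49 tested genes, of which 13 fell (26.5%) and 3 rose (RFC4, RFC5 and RRM1). BRCA1, a repair gene of S phase, fell by 0.31 (SE 0.056), and RRM1, the large subunit of ribonucleotide reductase, rose by 0.21 (SE 0.031), uncertain for an overlap. CDKN1A, the inhibitor p21, had 40.6, 39.9 and 43.0 CPM at T4, against 58.1, 51.0 and 50.6 CPM at T0 and fell by 0.37 log2 units (SE 0.050, adjusted p = 7.27e-07). BTG2, an antiproliferative target of p53, stood at 38.3, 37.2 and 41.3 CPM at T4, against 54.7, 54.3 and 51.7 CPM at T0 and fell by 0.46 log2 units (SE 0.046, adjusted p = 1.86e-09). Mitotic falls numbered 3 without T4 replicate 1 and 11 without either replicate 3, and S phase falls 7 without either replicate 1 and 4 without T4 replicate 2.

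Histone genes held some of the largest falls. Symbols of linker and core histones, a family chosen after values were seen, gave 5 falls and no rise among 7, with a median of -0.88. H1-2, a linker histone, had 37.9, 43.9 and 52.2 CPM at T4, against 128, 104 and 80.3 CPM at T0, and fell by 1.22 log2 units (SE 0.10, adjusted p = 1.87e-11). The T4 libraries lay below the T0 libraries, yet the T0 libraries themselves spread from 80.3 to 128 CPM. H1-4, another linker histone, stood at 32.4, 33.2 and 43.7 CPM at T4, against 88.5, 77.2 and 60.9 CPM at T0 and fell by 1.05 log2 units (SE 0.10, adjusted p = 1.32e-09). H3-4, a core histone, fell by 1.92 log2 units (SE 0.23, adjusted p = 5.88e-08), at 1.45 ± 0.290 CPM at T4 and 5.50 ± 0.796 CPM at T0 (SD, n = 3 each). Replication histone mRNAs mostly lack a poly(A) tail and have near-identical copies, so how their reads were counted leaves them uncertain. Tubulin symbols, chosen in the same way, gave 5 falls and no rise among 7. Of 57 cytosolic ribosomal protein genes 27 fell and none rose, with a small median of -0.10, and 15 fell without T4 replicate 1. RPS2 fell by 0.22 (SE 0.036) on the log2 scale, RPL10A fell by 0.21 (SE 0.038), and both kinds of gene have many near-identical pseudogenes that leave them uncertain. Splicing factors gave 11 falls and 2 rises (CLK1 and CLK4) among 27. SRSF2, a splicing activator, had 45.1, 46.2 and 53.3 CPM at T4, against 70.0, 74.2 and 65.3 CPM at T0 and fell by 0.53 log2 units (SE 0.059, adjusted p = 1.67e-08). CLK1, a kinase of such factors, stood at 52.9, 54.4 and 54.2 CPM at T4, against 40.5, 42.7 and 41.6 CPM at T0 and rose by 0.37 log2 units (SE 0.047, adjusted p = 1.88e-07); without T0 replicate 3 the splicing rises numbered 1.

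Rises were about as many as falls, but fewer of them were in the lists. Most of the 12 largest rises that the naming rule admits were in genes of modest level. MTERF2, of a family that acts on mitochondrial transcription, had 10.0, 11.6 and 7.59 CPM at T4, against 3.01, 3.52 and 2.16 CPM at T0, and rose by 1.74 log2 units (SE 0.42, adjusted p = 0.00225). It overlaps the clock gene CRY1, which stood at 93.4 ± 4.45 CPM at T4 and 101 ± 4.32 CPM at T0 (SD, n = 3 each), so reads of both cannot be told apart and MTERF2 is uncertain. DZIP3, a ubiquitin ligase, had 15.2, 15.1 and 14.1 CPM at T4, against 6.33, 8.88 and 7.84 CPM at T0, and rose by 0.95 log2 units (SE 0.079, adjusted p = 3.60e-11); no gene overlaps it, and its T4 libraries all lay above its T0 libraries. EYA4, a transcriptional cofactor and phosphatase, had 6.90, 6.03 and 4.98 CPM at T4, against 2.69, 3.48 and 3.08 CPM at T0 and rose by 0.95 log2 units (SE 0.12, adjusted p = 1.22e-07), and is uncertain for an overlap. ARNT2, a partner of bHLH-PAS factors, rose by 0.80 (SE 0.11) on the log2 scale, SHC4, an adaptor of receptor tyrosine kinases, rose by 0.75 (SE 0.096), and FAM47E rose by 0.72 (SE 0.15), all with overlaps that leave them uncertain. F5, coagulation factor V, had 14.7, 12.8 and 10.1 CPM at T4, against 6.45, 8.93 and 7.74 CPM at T0 and rose by 0.70 log2 units (SE 0.11, adjusted p = 5.30e-06). GCNT3, an enzyme that branches mucin glycans, stood at 5.64, 5.45 and 5.11 CPM at T4, against 3.46, 3.52 and 3.04 CPM at T0 and rose by 0.69 log2 units (SE 0.12, adjusted p = 6.81e-05). FBXO47, an F-box protein, rose by 0.68 (SE 0.12), and IQGAP2, a scaffold of actin regulators, rose by 0.68 (SE 0.13), and PDZD9 rose by 0.67 (SE 0.11), the last 2 being uncertain for overlaps. Among the largest falls, MYLK3, a myosin light chain kinase of heart muscle, had 2.68, 2.89 and 3.10 CPM at T4, against 7.03, 6.84 and 6.19 CPM at T0 and fell by 1.21 log2 units (SE 0.16, adjusted p = 8.80e-07).

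Cilium genes held rises and no fall. Of 60 genes with symbols beginning CFAP or IFT, 20 rose and none fell, with a median of 0.17. They encode axoneme proteins and the transport trains of cilia, and the family was picked after values were seen. Of the 60, 29 overlap another annotated gene and are uncertain. Calls also differed with abundance and gene class. Among the 4498 genes of lowest mean CPM (0 to 0.348 CPM), 90 rose (2.00%) and 22 fell (0.489%), with a median change of 0.13. That median rests on few or no reads per gene. Among the 4498 genes of highest mean CPM, 813 rose (18.1%) and 1157 fell (25.7%), with a median of -0.01. Long noncoding RNAs gave 266 rises and 106 falls among 3682, and annotated pseudogenes 19 rises and 51 falls among 788. The share of all counts in long noncoding RNAs was 1.38% to 1.45% at T4 and 1.22% to 1.36% at T0. As a description across genes, the rank correlation of log2 fold change with mean CPM was -0.12 over 22488 genes, which share 6 libraries and are not independent.

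Changes of the core clock went in both directions. Of 17 genes tested, 3 rose and 2 fell, and no change reached 2-fold. The calls were 29.4% of the list, against 20.8% of all genes. PER3, a period gene, had 5.79, 6.21 and 6.62 CPM at T4, against 4.52, 4.28 and 4.25 CPM at T0, and rose by 0.51 log2 units (SE 0.13, adjusted p = 0.00417). NR1D2, the nuclear receptor REV-ERB beta that represses BMAL1, stood at 48.1, 47.2 and 50.7 CPM at T4, against 44.6, 42.6 and 41.6 CPM at T0 and rose by 0.18 log2 units (SE 0.045, adjusted p = 0.00326). BMAL2, a relative of BMAL1, had 30.3, 32.6 and 28.0 CPM at T4, against 24.3, 28.5 and 25.9 CPM at T0, with 1 T0 library above the lowest T4 library, and rose by 0.21 log2 units (SE 0.058, adjusted p = 0.00876). BMAL1, the activator of the loop, stood at 77.0, 76.8 and 78.7 CPM at T4, against 84.1, 87.4 and 84.1 CPM at T0 and fell by 0.14 log2 units (SE 0.040, adjusted p = 0.0113). CRY2, a cryptochrome repressor, had 12.1, 13.7 and 12.5 CPM at T4, against 14.6, 16.1 and 15.1 CPM at T0 and fell by 0.26 log2 units (SE 0.088, adjusted p = 0.0335). The BMAL1 call did not hold without T4 replicate 1 or T0 replicate 2, the BMAL2 call without T0 replicate 1 or T4 replicate 2, and the CRY2 call without T4 replicate 1, T0 replicate 2 or either replicate 3 (adjusted p up to 0.0629, 0.0985 and 0.153 for the 3 genes in that order).

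The other 12 clock genes did not pass the test, and 10 of them are described here. PER1 had 8.44, 9.89 and 9.59 CPM at T4, against 11.5, 10.3 and 11.0 CPM at T0, a log2 change of -0.23 (SE 0.089, adjusted p = 0.0627). PER2 stood at 2.66, 2.96 and 1.83 CPM at T4, against 2.35, 2.15 and 1.80 CPM at T0, with 0.24 (SE 0.19, adjusted p = 0.437). CRY1, which shares reads with MTERF2 and others and is uncertain, had 94.2, 88.6 and 97.4 CPM at T4, against 101, 105 and 96.6 CPM at T0, with -0.11 (SE 0.062, adjusted p = 0.212). CLOCK, the partner of BMAL1, had 68.8, 67.9 and 70.0 CPM at T4, against 72.3, 73.0 and 70.0 CPM at T0, with -0.060 (SE 0.040, adjusted p = 0.321). NPAS2, which can stand in for CLOCK, had 0.40 (SE 0.17, adjusted p = 0.0885), and NR1D1, the receptor REV-ERB alpha, had 0.15 (SE 0.21, adjusted p = 0.700); both overlap other genes and are uncertain. RORA, an activator of BMAL1, stood at 20.1 ± 0.620 CPM at T4 and 21.0 ± 2.25 CPM at T0 (SD, n = 3 each) with -0.064 (SE 0.069, adjusted p = 0.588), and its low-level relative RORB had 0.39 (SE 0.57, adjusted p = 0.706). The casein kinases CSNK1D and CSNK1E, which mark period proteins for decay, had 0.047 (SE 0.036, adjusted p = 0.406) and 0.060 (SE 0.041, adjusted p = 0.338), and CSNK1D overlaps SLC16A3 and is uncertain. Among 20 clock output factors 3 rose (BHLHE40, HLF and LGALS3) and 4 fell (NFIL3, NOCT, PPARA and TSC22D3). BHLHE40, a repressor of clock targets, stood at 22.9, 22.2 and 20.6 CPM at T4, against 17.3, 14.4 and 16.2 CPM at T0 and rose by 0.45 log2 units (SE 0.081, adjusted p = 6.41e-05), uncertain for an overlap. HLF, an output factor of the clock, rose by 0.26 (SE 0.050) on the log2 scale.

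**Figure D3:**
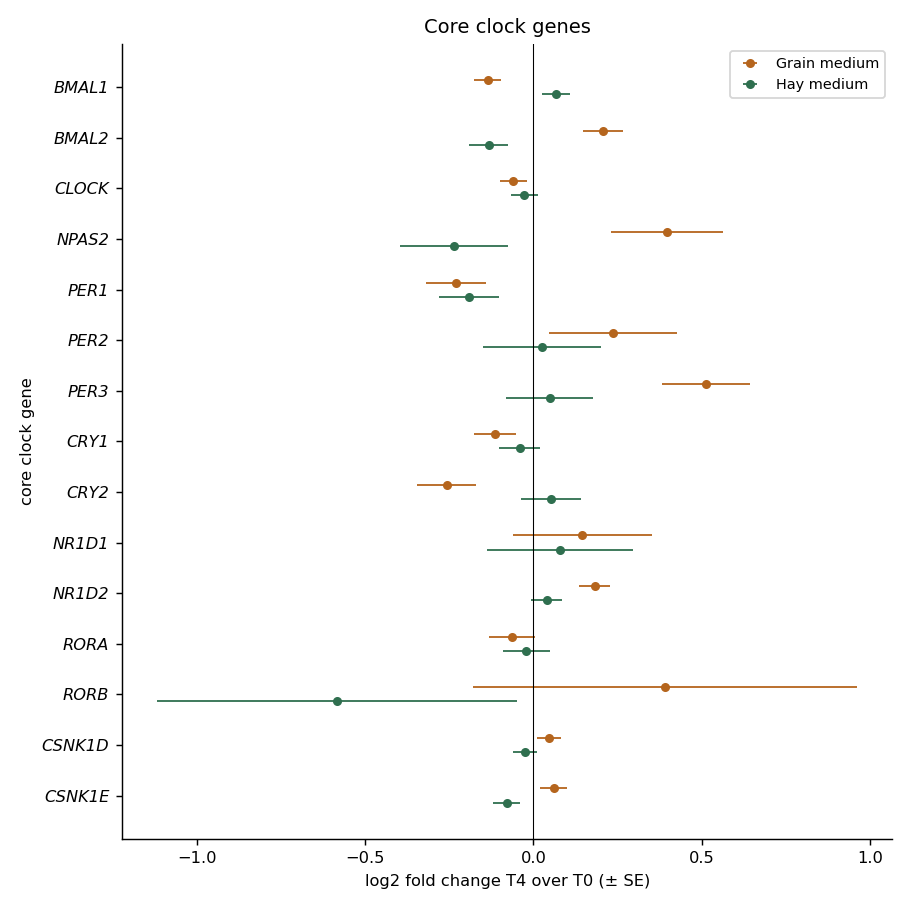
Log2 fold change of T4 over T0 with its standard error for 15 of the 17 core clock genes tested, in Grain medium and, below it in each row, in Hay medium. In Grain medium PER3 (0.51), BMAL2 (0.21) and NR1D2 (0.18) were higher at T4 and CRY2 (-0.26) and BMAL1 (-0.14) lower, and the bars of most other genes reach or lie near 0.

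In Hay medium the same interval moved few genes. There 332 of 22488 genes passed (1.48%), 194 higher at T4 (0.863%) and 138 lower (0.614%), and 2509 had an unadjusted p under 0.05. Both media shared 45 rises, 1.94% of the Grain rises and 23.2% of the Hay rises, and 90 falls, 3.82% of the Grain falls and 65.2% of the Hay falls. Of the Grain falls 50 were called higher in Hay, and of the Grain rises 2 were called lower. The genes that fell in Grain had a median change of -0.25 there and -0.02 in Hay, and those that rose had 0.26 in Grain and 0.04 in Hay. The difference between the media in the T4 to T0 change, tested itself as an interaction, passed for 1906 genes (8.48%), 811 higher in Grain (3.61%) and 1095 lower (4.87%), among them 946 of the Grain falls (40.2%) and 749 of the Grain rises (32.4%). Without Grain T4 replicate 1 the lower count was 681 and the higher count 745. In Hay the number of calls was 176 to 213 when any 1 of 5 of its 6 libraries was left out, and 337 without T4 replicate 1, so the Hay count depends on single libraries.

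**Figure D4:**
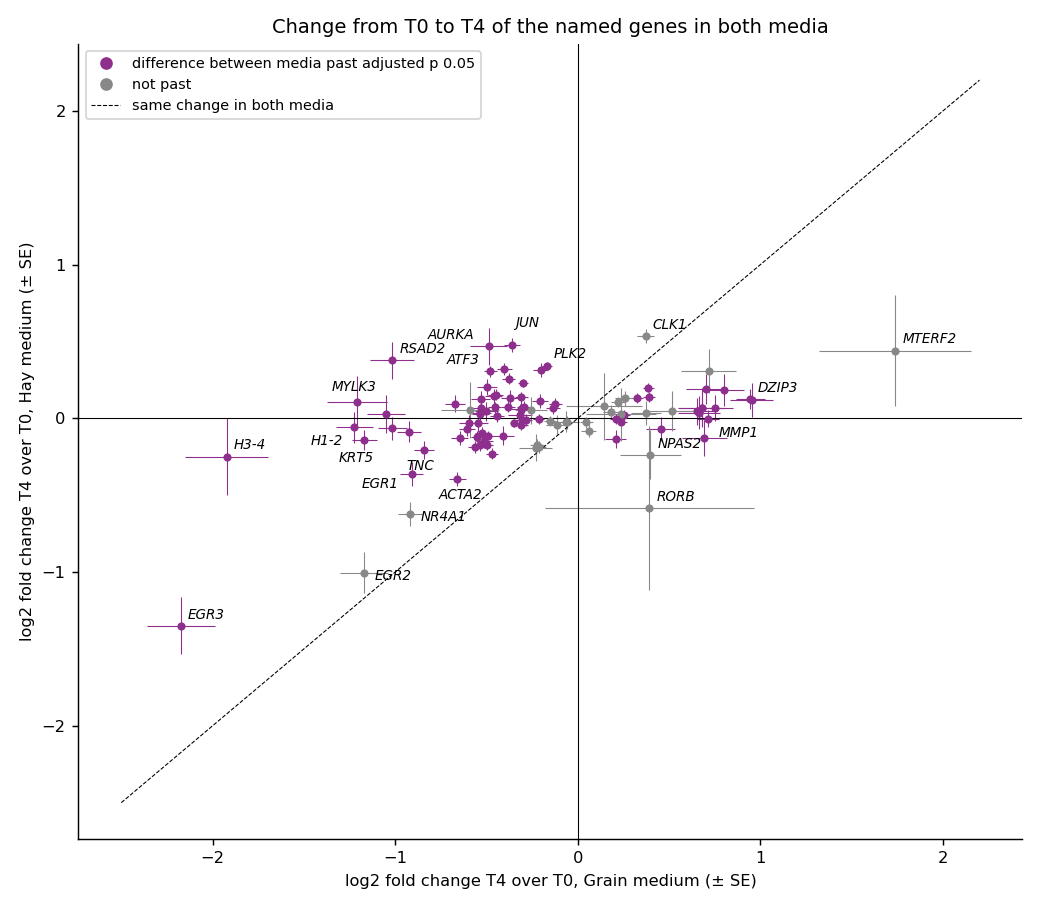
Log2 fold change of T4 over T0 of the named genes in Grain medium (horizontal axis) and in Hay medium (vertical axis), each with its standard error; the dashed line marks equal changes. Most points lie near 0 on the Hay axis over the range from -2.17 (EGR3) to 1.74 (MTERF2) on the Grain axis, EGR2 lies close to the dashed line, and JUN and ATF3 lie below 0 in Grain and above 0 in Hay.

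The interaction test gave a lower change in Grain than in Hay for 24 of 38 matrix genes and 17 of 34 immediate early genes. So it did for 12 of 26 actin genes, 11 of 15 basal keratinocyte markers and 8 of 13 mitochondrial mRNAs. Some of these lists fell in Hay too, where 0.614% of all genes were called lower and 0.863% higher. In Hay 10 of the 38 matrix genes fell and 1 rose, and 7 of the 26 actin genes fell and none rose. Immediate early genes there gave 7 falls and 6 rises, basal markers 1 fall and no rise, and mitochondrial mRNAs no call. The 6 genes of smallest interaction p were lower at T4 in Grain and higher at T4 in Hay. ATF3 had a log2 change of -0.48 (SE 0.036, adjusted p = 3.30e-12) in Grain and 0.31 (SE 0.038, adjusted p = 1.70e-06) in Hay. JUN had 114, 113 and 122 CPM at T4, against 145, 147 and 158 CPM at T0 in Grain, and 141, 136 and 139 CPM at T4, against 98.7, 97.8 and 102 CPM at T0 in Hay. Its change was -0.36 (SE 0.045, adjusted p = 1.65e-07) in Grain and 0.48 (SE 0.045, adjusted p = 6.60e-09) in Hay. PLK2, a kinase of the stress response, had -0.17 (SE 0.026, adjusted p = 5.30e-06) in Grain and 0.34 (SE 0.025, adjusted p = 4.07e-11) in Hay. SOX4, a transcription factor of progenitor cells, had -0.30 (SE 0.027, adjusted p = 1.44e-10) in Grain and 0.23 (SE 0.026, adjusted p = 5.29e-07) in Hay, CCN1 had -0.38 (SE 0.034, adjusted p = 1.86e-10) and 0.26 (SE 0.034, adjusted p = 5.76e-06) in that order, and HSPA1A -0.40 (SE 0.042, adjusted p = 4.20e-09) and 0.32 (SE 0.040, adjusted p = 2.15e-06). Other genes had lower levels at T4 in both media. EGR2 had -1.005 (SE 0.13, adjusted p = 5.80e-06) in Hay, and its difference between the media was -0.17 (SE 0.19, adjusted p = 0.689), while for EGR3 it was -0.82 (SE 0.26, adjusted p = 0.0405) and for NR4A1 -0.30 (SE 0.10, adjusted p = 0.0692). The EGR3 difference missed the threshold when any 1 of 8 of the 12 libraries was left out (adjusted p up to 0.146). The media also differed in level, with 0.943% to 0.971% of counts in mitochondrial mRNAs at T4 in Grain and 2.79% to 3.07% at T4 in Hay. Ribosomal protein genes gave no call for the difference between the media among 57, with medians of -0.10 in Grain and -0.06 in Hay.

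Over the 6 harvests, several of these groups were lower at T8 than at T4. In Grain medium, the median of the matrix genes around their own mean was 0.04, -0.24, -0.44, 0.48, 0.19 and -0.01 on the log2 scale at T0, T4, T8, T12, T16 and T20. For the mitochondrial mRNAs it was 0.07, -0.29, -0.59, 0.56, 0.16 and 0.03, and for the basal keratinocyte markers 0.14, -0.25, -0.40, 0.46, 0.13 and -0.06. In Hay medium the matrix genes had -0.05, -0.16, -0.31, 0.30, 0.13 and 0.04 at the same times. The mitochondrial mRNAs had -0.07, -0.09, -0.22, 0.19, 0.16 and 0.05 there, and the basal markers 0.02, 0.02, -0.08, 0.12, 0.02 and -0.04. All 3 lists thus lay lowest at T8 and highest at T12 in Hay as well, over a smaller range than in Grain. KRT5 shows this at the level of a gene, with 89.3 ± 9.38, 39.7 ± 5.00, 27.5 ± 1.63, 165 ± 5.03, 107 ± 4.88 and 71.1 ± 3.34 CPM in Grain and 61.6 ± 0.747, 55.8 ± 2.37, 48.6 ± 3.79, 107 ± 2.25, 79.6 ± 4.98 and 64.8 ± 4.11 CPM in Hay at T0, T4, T8, T12, T16 and T20 (SD, n = 3 each). TNC had 1184 ± 113, 661 ± 64.4, 472 ± 27.2, 2210.0 ± 15.4, 1609 ± 53.4 and 1168 ± 94.5 CPM in Grain over the same times. MMP1 went the other way, with 67.6 ± 0.245, 111 ± 9.50, 151 ± 5.82, 35.9 ± 3.16, 43.3 ± 2.38 and 54.9 ± 0.426 CPM. EGR1 took another course in Grain, 59.3 ± 3.00, 31.6 ± 1.51, 28.7 ± 1.57, 16.3 ± 0.741, 18.7 ± 1.27 and 21.2 ± 1.24 CPM, so that its T0 level was the highest of the 6. PER3 had 4.35 ± 0.146, 6.21 ± 0.417, 7.39 ± 0.781, 3.54 ± 0.206, 4.02 ± 0.902 and 4.92 ± 0.735 CPM. In Grain these 3 lists thus lay highest at T12 and lowest at T8, with T0 and T4 between them; the labels do not say in which order or on which plates the harvests were handled, so time and such handling cannot be told apart.

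**Figure D5:**
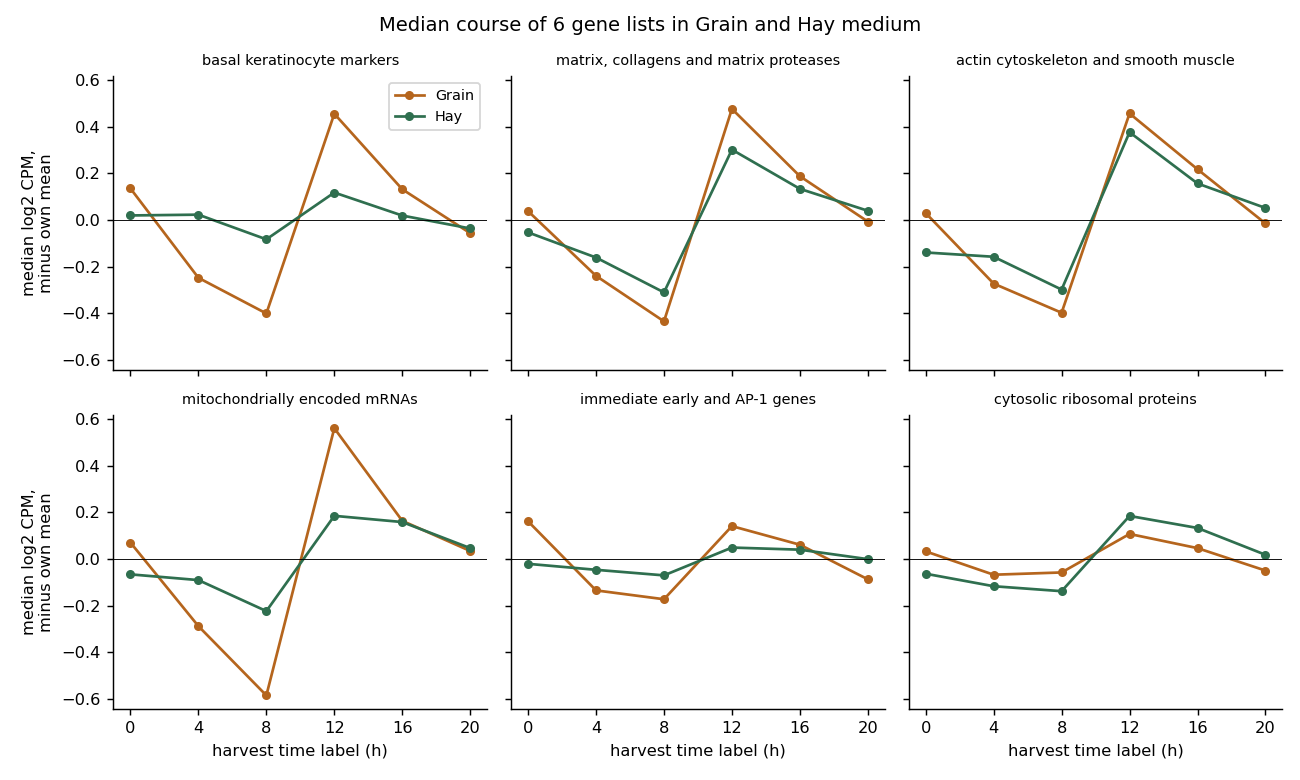
Median over the genes of 6 lists of log2 CPM (group mean plus 0.1) around each gene's own mean over the 6 harvests, in Grain and in Hay medium, against the time label in h. In Grain the mitochondrial mRNAs are at -0.29 at T4 and 0.07 at T0, and reach -0.59 at T8 and 0.56 at T12. In Hay the matrix genes reach -0.31 at T8 and 0.30 at T12, and the basal keratinocyte markers vary less, between -0.08 and 0.12.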

How the data were processed

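RNA of cultured sheep ruminal epithelial cells was sequenced as paired-end TruSeq libraries, per the labels' protocols. The authors deposited whole-number read counts per gene, made with HISAT2 2.2.1, SAMtools 1.20 and StringTie 2.1.5, per the submitters' processing notes; the genome build is not given in the sources used here, and no strand-aware counting is stated. The table has 35223 rows, 2778 of them without a symbol. Each of the 29910 distinct symbols matched a gene in RefSeq (assembly ARS-UI_Ramb_v3.0), from which only names, gene classes and overlaps were taken.

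Counts were tested with edgeR 4.0.16 in R 4.3.3 (quasi-likelihood, TMM scaling, filterByExpr with a minimum count of 10 and total of 15) on all 36 libraries with 12 group means, two-sided, with Benjamini-Hochberg adjustment over 22488 genes and a threshold of 0.05. Contrasts were T4 minus T0 in Grain, the same in Hay, and their difference. With 3 libraries against 3, an exact permutation test of a single value cannot go below 0.10, so shares of counts were not tested. The course over time used group mean CPM plus 0.1. The procedure was tested on simulated data.

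Named genes had a symbol that is no bare identifier and at least 5 CPM at T4 or T0. Core clock genes, cell type markers given as levels and genes named only beside a count were exempt from the 5 CPM floor. They are the 12 largest rises and 12 largest falls among calls whose libraries did not overlap, all core clock genes, up to 4 genes of smallest p from each list, and the 6 of smallest p for the difference between media. Not all of them are described, and some results are not reported here. Genes that overlap another annotated gene are called uncertain. The members, lists and named genes were chosen with earlier results of these data known. Alternatives were DESeq2 1.42.0 size factors and its Wald test, no low-count filter, the 6 or 12 libraries alone, a replicate block and leaving out each library. Promoter sequences were not analysed here.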

Additional observations from a re-analysis of the deposited data

Results flagged for a closer look

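For 77 of the genes described, the T4 over T0 change in Grain medium differed from that in Hay medium by the interaction test of edgeR (adjusted p under 0.05), and each difference is given here as Grain minus Hay on the log2 scale, 3 libraries a group. Most of these differences were negative, so that the gene was lower at T4 in Grain relative to its change in Hay. The genes were named mostly for their change in Grain, which is a part of the difference. The share of negative signs therefore describes this selection alone. Over all genes tested, 1095 differences were called lower in Grain and 811 higher. Without Grain T4 replicate 1 these counts were 681 and 745.

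Among immediate early genes and related factors the difference was -0.55 for EGR1, -0.82 for EGR3, -0.84 for DUSP5, -0.78 for ATF3, -0.84 for JUN, -0.51 for PLK2, -0.53 for SOX4 and -0.64 for CCN1. For histones it was -1.67 for H3-4, -1.17 for H1-2 and -1.08 for H1-4. Keratins gave -1.03 for KRT5, -0.77 for KRT14, -0.60 for KRT17, -0.95 for KRT6A and -0.30 for KRT19. The EGR3 difference missed the threshold when any 1 of Grain T4 replicates 1 and 2, Grain T0 replicates 1 and 3, or replicates 1 and 2 of either Hay time was left out (adjusted p up to 0.146). That of KRT19 did so for replicates 1 and 2 of either Grain time, Hay T4 replicates 1 and 3 and Hay T0 replicate 3 (adjusted p up to 0.149).

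Matrix and actin genes had -0.43 for THBS1, -0.64 for TNC, -0.36 for LOXL2, -0.24 for COL3A1, -0.38 for DPT, -0.21 for FN1, -0.27 for ACTA2, -0.33 for FLNA and -0.32 for VCL, while MMP1 had 0.71. The ACTA2 difference missed the threshold without Grain T4 replicate 1 (adjusted p = 0.0737). Growth factor and TGF-beta genes had -0.52 for INHBA, -0.43 for TGFBI, -0.54 for VEGFA and -0.36 for IGFBP3.

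In energy metabolism the mitochondrially encoded genes had -0.56 for COX3 and -0.55 for ATP6, and the nuclear genes of the respiratory chain 0.25 for NDUFB3, 0.26 for NDUFS1 and 0.23 for ATP5PO. Acid oxidation and transport gave 0.20 for ACADSB, -0.30 for ACADVL, 0.61 for EMB and -0.22 for SLC16A1, and glucose use 0.19 for TXNIP, -0.56 for SLC2A3, -0.46 for HK2 and -0.27 for GAPDH. The sterol sensor INSIG1 had -0.52.

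Stress, steroid and inflammatory genes had -0.37 for HSPA5, -0.28 for HERPUD1, -0.72 for HSPA1A, -0.46 for HSP90AB1, -0.52 for DNAJB1, -0.38 for MCL1, -0.53 for ERRFI1, -0.66 for TSC22D3, -0.44 for SGK1, -0.60 for IL1A, -0.70 for PTGS2 and -1.39 for RSAD2. Genes of the cell cycle had -0.34 for CENPF, -0.32 for TOP2A, -0.96 for AURKA, 0.21 for RRM1, -0.37 for BRCA1, -0.60 for BTG2 and -0.50 for CDKN1A, and the splicing factor SRSF2 had -0.57.

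Among the largest rises and falls the difference was 0.83 for EYA4, 0.82 for DZIP3, 0.62 for ARNT2, 0.69 for SHC4, 0.51 for F5, 0.82 for GCNT3, 0.61 for IQGAP2, 0.61 for FBXO47, 0.63 for PDZD9 and -1.31 for MYLK3. That for F5 missed the threshold without either Grain replicate 1 or Hay T4 replicate 1 (adjusted p up to 0.0989), and that for IQGAP2 without Grain T4 replicate 2, Grain T0 replicate 1 or 2, Hay T4 replicate 1 or 3, or Hay T0 replicate 2 (adjusted p up to 0.0939). Clock genes had -0.20 for BMAL1, 0.34 for BMAL2 and 0.52 for BHLHE40, and the BMAL1 difference missed the threshold without Grain T4 replicate 1, Grain T0 replicate 2 or Hay T0 replicate 2 (adjusted p up to 0.104).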

How the results depend on the processing

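DESeq2 size factors left 98.6% of the 4668 Grain calls, the DESeq2 Wald test 97.7% and no low-count filter 89.9%. The 6 Grain libraries alone left 66.4%, the replicate block on those 6 left 48.1%, and leaving out 1 library left 70.8% to 83.9%. No Grain call changed sign under any alternative run. With the 6 Grain libraries alone, 3186 genes were called, 1471 higher at T4 and 1715 lower, and 123 calls reached 2-fold; BMAL2 and SLC16A1 were not called. Leaving out 1 library gave 3452 to 4334 Grain calls, with 1719 to 2167 higher, 1637 to 2167 lower and 172 to 258 at 2-fold. In Hay, leaving out 1 library gave 176 to 337 calls, 97 to 207 higher, 79 to 130 lower and 4 to 12 at 2-fold. There the DESeq2 Wald test gave 577 calls, 349 higher, 228 lower and 1 at 2-fold, no filter gave 117 higher, and the 6 Hay libraries alone gave 12 at 2-fold. The difference between media passed for 1419 to 2066 genes without 1 library, 592 to 882 higher, 681 to 1184 lower and 80 to 136 at 2-fold, and the DESeq2 Wald test gave 43 at 2-fold. With the 12 T0 and T4 libraries alone the differences of EGR3, KRT19, F5 and BMAL1 were not called, and with no low-count filter those of EGR3 and KRT19. The cause of these shifts was not tested.

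Libraries of different times share only a replicate number. Same-numbered T4 and T0 libraries had correlations of their deviations of -0.035, 0.0060 and -0.042 in Grain and 0.0073, 0.031 and -0.019 in Hay, and not every library correlated best with its own number. A replicate block on all 36 libraries gave 4605 calls in Grain, 325 in Hay and 1882 for the difference between media. With the replicate block on the 6 Grain libraries there were 2298 calls, 1008 higher, 1290 lower and 92 at 2-fold, and on the 6 Hay libraries 10 at 2-fold. That fit on the 6 Grain libraries did not call BSG, SLC16A1, BMAL1, BMAL2, CRY2 and NR1D2 (adjusted p from 0.0545 for BSG to 0.183 for SLC16A1), so of the 5 core clock calls only that of PER3 held there.

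Some values that did not pass the threshold changed sign without single libraries. For the difference between media, RPL10A ran from -0.055 to 0.016 on the log2 scale over these settings, PER1 from -0.098 to 0.046, RORA from -0.13 to 0.025 and NR1D1 from -0.11 to 0.33.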
